A study of Homo sapiens with 6 samples.

Results

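The NF-kB subunits and inhibitors described here are 10 genes, found by their symbols among the 19892 genes of the authors' deposited table, where all 10 had a row. They are the 5 family subunits (NFKB1, NFKB2, REL, RELA and RELB), the IkB inhibitors NFKBIA, NFKBIB and NFKBIE, the ubiquitin-editing inhibitor TNFAIP3 and the kinase gene IKBKB. Values come from HEK293 cells, a human line of embryonic kidney origin, grown in DMEM with serum. The 3 wild-type libraries were from unedited HEK293 cells and the 3 knockout libraries from HEK293 cells with a CRISPR-Cas9 mediated CNBP knockout. No stimulus of the NF-kB pathway is named in the labels for either group, and nothing there says whether the knockout cells were 1 clone or several.

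The table gives 1 FPKM value (fragments per kilobase of transcript, normalised by the authors to the mapped fragments) per gene and group. Values of the single libraries were not analysed here, so no difference below has a standard deviation, a p-value or a replicate check, and depth is unknown. Differences are given as log2 ratios, knockout divided by wild type. A gene was counted as higher or lower at a fold of 1.5 or more, which is 0.58 on the log2 scale. The targeted gene, CNBP, stood at 202 FPKM and 214 FPKM in the wild-type and knockout columns, so its mRNA cannot tell them apart as labelled. Of 8 genes fixed as markers of the line, VIM had 510.4 FPKM in wild type, KRT8 123 and KRT18 54.0, while NEFM and NEFH were at or below 1.02 in both columns and NEFL was listed at 0. CDH2 stood at 34.0 and 37.9 FPKM in wild type and knockout, and PAX2 at 2.71 and 2.16. The other marker lists were fixed as ones that should be low. The 7 fixed T and B cell markers reached at most 1.46 FPKM, with CD3E and MS4A1 listed at 0 in both columns. A listed 0 can be a failed estimate. The 4 endothelial markers reached at most 0.187 FPKM, while the 4 fibroblast markers lay between 5.50 and 41.3 FPKM over both columns. Of the 5 macrophage markers, CD14, CSF1R and ITGAM were at or below 1.06 FPKM in both columns, while CD163 stood at 14.1 FPKM in wild type against 12.7 FPKM in knockout and CD68 at 7.68 against 7.37. The fibroblast list, CD163 and CD68 thus went against the label of their lists. So did NEFM and NEFH, which were fixed as expressed in the line, while the 0 of NEFL can be a failed estimate.

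NF-kB is a family of dimeric transcription factors that share a Rel homology domain. In resting cells IkB proteins hold the dimers in the cytoplasm. In the canonical pathway, receptors for tumour necrosis factor, interleukin-1 and microbial products act through ubiquitin-bound adaptors on the IkB kinase complex, whose catalytic subunit IKK-beta phosphorylates IkB and so marks it for the SCF-betaTrCP ubiquitin ligase and the proteasome. Released dimers bind kB sites in DNA, and NFKBIA and TNFAIP3 are textbook targets that feed back on the pathway. HEK293 cells are widely used for reporter assays of this pathway because they respond to tumour necrosis factor and lack several Toll-like receptors.

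Because several members are known to be controlled by NF-kB itself, the DNA before their start sites is shown first. RefSeq promoter windows (GRCh38.p14) matched 7 of the 10 symbols. The 250 bases before each annotated start were searched on both strands for the NF-kB consensus (the kB site), and overlapping matches were counted. It was found in 7 of 12 windows of the members, and in at least 1 window of 6 of these 7 genes, while 5.21% of all 35116 windows of that length held it. Several windows of 1 gene are not independent of each other. The 30 bases around a match are printed 5′ to 3′ on the strand of the gene, with the bases of the match in capitals; runs longer than 10 capitals are overlapping matches. The first is NFKBIA at chr14:35404811-35404840 on the minus strand, with the match starting 81 bases before the start site. On the plus strand follow TNFAIP3 at chr6:137867188-137867217, with 2 matches, and NFKBIB at chr19:38899931-38899960, before one of its 2 annotated starts. Then come NFKB1 at chr4:102501300-102501329, REL at chr2:60881517-60881546, and NFKB2 at chr10:102394461-102394490 and chr10:102395674-102395703, before different starts of that gene, which are 2 of the 4 places with a match there.
NFKBIA: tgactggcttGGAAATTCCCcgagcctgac
TNFAIP3: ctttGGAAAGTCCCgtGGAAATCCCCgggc
NFKBIB: gggcgtggtgGGGAATTTCCCgcagggcgg
NFKB1: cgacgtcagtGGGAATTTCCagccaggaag
REL: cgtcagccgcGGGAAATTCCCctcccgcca
NFKB2, first window: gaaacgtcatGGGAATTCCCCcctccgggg
NFKB2, second window: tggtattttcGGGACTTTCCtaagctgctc
RELA was the gene of the 7 whose windows held no match. RELB, NFKBIE and IKBKB are named only. A match is a run of letters and does not show that a factor binds there.

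Of the 10 members, 2 were higher by 1.5-fold or more in the knockout column and none was lower. Both were inhibitors, NFKBIB (1.59-fold) and TNFAIP3 (1.64-fold). Over all 13219 genes compared, those that reached 1 FPKM in either column and were not at 0 in the other, 1.48% were higher and 2.78% lower by that much. At a fold of 2, no member was higher or lower, beside 0.34% of all genes higher and 0.681% lower. At a fold of 1.2, 4 members were higher (RELA and RELB in addition) and none lower, beside 8.62% and 13.2% of all genes. The other 8 members lay within 1.5-fold, and 6 of the 10 lay within 1.2-fold, against 78.2% of all compared genes. In all, 7 members had a log2 ratio above 0 and 3 below it, beside 51.3% of all compared genes below 0. The members' median log2 ratio was 0.08, and that of all compared genes was -0.01.

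The spread of ratios over all genes depends strongly on level, and the members span a wide range of it. NFKBIB, NFKBIA, RELA and IKBKB had mean levels of 20 to 50 FPKM, and of the 3371 genes in that band 0.297% were higher by 1.5-fold or more. The central 95% of that band spanned log2 ratios of -0.38 to 0.34. TNFAIP3 and RELB had mean levels of 1 to 5 FPKM, and of the 2785 genes there 4.45% were higher by that much, with a central 95% of -0.86 to 0.72. NFKBIB lay outside the central range of its band. TNFAIP3, with a log2 ratio of 0.71, lay just inside its own, and the other 8 members lay inside theirs.

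**Figure D1:**
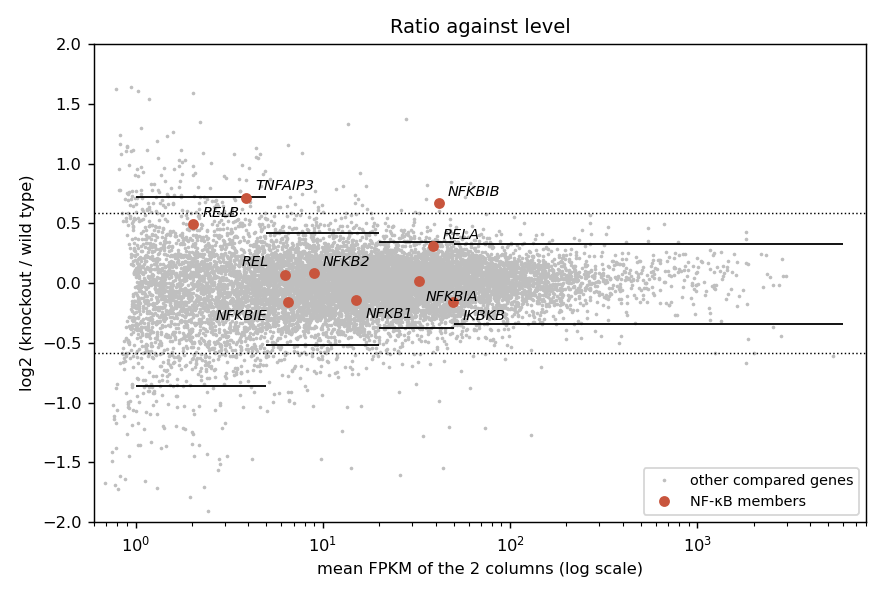
Log2 ratio of knockout over wild type (vertical axis) against the mean FPKM of the 2 columns (horizontal log axis) for all compared genes (grey) and the 10 members (red); 19 genes beyond the vertical limit of 2 are not drawn. Solid lines mark the central 95% of genes in each band of mean FPKM and dotted lines a fold of 1.5; NFKBIB is the member clearly above its band.

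No subunit gene reached 1.5-fold, a count near the background of 1.48% of all compared genes higher and 2.78% lower. The median log2 ratio of the 5 was 0.09, and 4 of them lay above 0. Over all compared genes, 51.3% lay below 0. RELA encodes p65, which carries a transactivation domain and pairs with p50 in the dimer most often studied. Its level was 34.7 FPKM in wild type against 43.0 FPKM in knockout, a log2 ratio of 0.31 (1.24-fold). RELA was the most abundant subunit mRNA in both columns. RELB, the transactivating partner of p52 in the non-canonical pathway, was the least abundant of the 10 members. It had 1.69 FPKM in wild type against 2.38 FPKM in knockout, a log2 ratio of 0.49 (1.41-fold), below the threshold.

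NFKB1 encodes the precursor p105 and its product p50. It was the only subunit with a lower value in the knockout column, 15.8 FPKM in wild type against 14.3 FPKM in knockout, a log2 ratio of -0.14. NFKB2, the gene of p100 and p52, stood at 8.69 and 9.22 FPKM, a log2 ratio of 0.09. REL, which encodes c-Rel and is best known from lymphoid cells, stood at 6.14 and 6.43 FPKM, a log2 ratio of 0.07. These 3 subunits thus had nearly equal values in both columns, each within 1.2-fold.

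The make-up of the subunit mRNA pool followed from these values. FPKM is per length, so levels of different genes can be set side by side. The 5 subunits summed to 67.0 FPKM in wild type against 75.3 FPKM in knockout, a difference of 8.27, and RELA alone differed by 8.28. RELA made up 51.7% of the sum in wild type and 57.0% in knockout. NFKB1 made up 23.6% and 19.0%. NFKB2, REL and RELB made up 13.0%, 9.17% and 2.53% in wild type and 12.2%, 8.54% and 3.16% in knockout. The level of RELA was 2.19 times that of NFKB1 in wild type and 3.00 times in knockout.

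**Figure D2:**
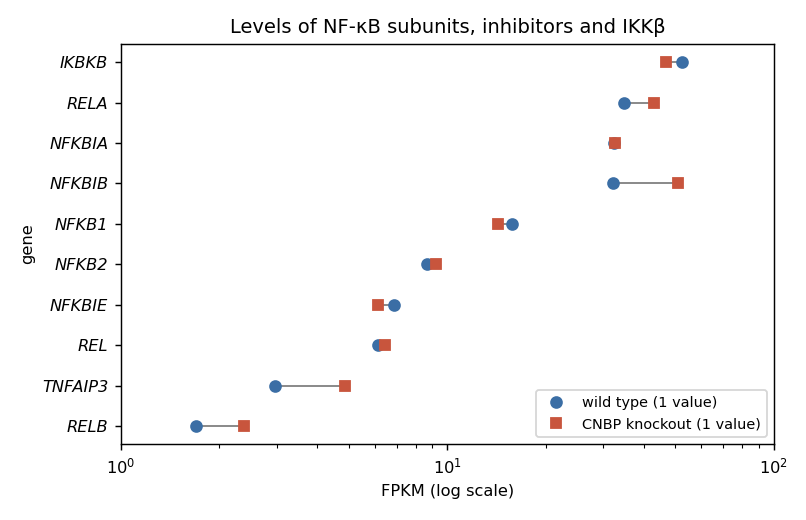
FPKM of each member on a log axis in wild type (blue circles) and CNBP knockout (red squares), 1 value per group, ordered by the wild-type value. NFKBIB and TNFAIP3 have the longest lines between the symbols, and those of NFKBIA coincide.

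The IkB inhibitor genes did not share a direction. NFKBIA encodes IkB-alpha, which is degraded within minutes of a stimulus and made again from its own NF-kB-driven gene. It stood at 32.3 FPKM in wild type against 32.6 FPKM in knockout, a log2 ratio of 0.01. NFKBIB encodes IkB-beta, another inhibitor of p65 and c-Rel dimers. It stood at 32.1 FPKM in wild type against 51.1 FPKM in knockout, a log2 ratio of 0.67. The genes had almost the same level in wild type, with NFKBIB at 0.994 times NFKBIA there and 1.56 times in knockout.

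NFKBIE, the gene of IkB-epsilon, had 6.86 FPKM in wild type against 6.14 FPKM in knockout, a log2 ratio of -0.16. NFKBIB thus ranked 4 of the 10 members by level in wild type and 1 in knockout, while NFKBIE ranked 7 and 8. The 3 IkB genes summed to 71.3 FPKM in wild type against 89.8 FPKM in knockout. NFKBIA and NFKBIB each made up about the same part of the wild-type sum, 45.3% and 45.1%, and 36.3% and 56.8% of the knockout sum. The summed IkB level over the summed subunit level was 1.06 in wild type and 1.19 in knockout. These are ratios of mRNA levels and say nothing of protein.

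**Figure D3:**
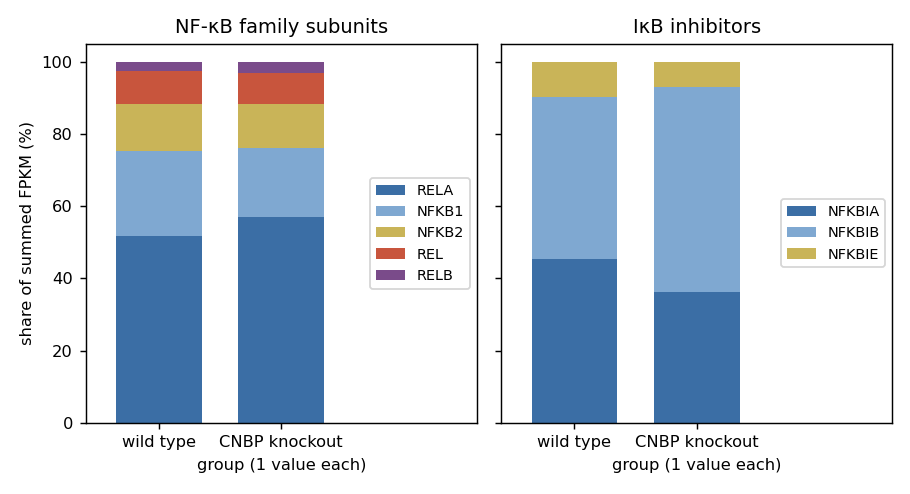
Share of the summed FPKM (percent, axis from 0) held by each of the 5 subunit genes (left) and each of the 3 IkB genes (right) in wild type and CNBP knockout, 1 value per group. RELA holds 51.7% and 57.0% of the subunit sum, and NFKBIB 45.1% and 56.8% of the IkB sum.

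TNFAIP3 encodes A20, which edits ubiquitin chains on adaptors such as RIPK1 and so limits signalling to the IKK complex. Its level was 2.96 FPKM in wild type against 4.85 FPKM in knockout. It was of low abundance in both columns, at percentiles 14.5 and 22.1 of the compared genes. With 1 FPKM added to both values the log2 ratio was 0.56, which is below 1.5-fold, while that of NFKBIB was 0.65. IKBKB, the gene of IKK-beta, was the most abundant member in wild type. It stood at 52.5 FPKM there against 46.9 FPKM in knockout, a log2 ratio of -0.16. CHUK, the gene of the sister kinase IKK-alpha, stood at 33.3 and 32.7 FPKM, and the ratio of IKBKB to CHUK was 1.57 and 1.44.

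Whole stretches of a chromosome can be shifted in such columns, so each member was set beside the 20 nearest compared genes in gene order. The neighbours of NFKBIB on chromosome 19 were mixed, with 11 above 0 and 9 below and a median log2 ratio of 0.05. By 1.5-fold or more, 1 of them was higher (CCER2) and 2 were lower (CTC-360G5.8 at -2.38 and FBXO27 at -0.91). Over all compared genes, 1.48% were higher and 2.78% lower by that much. The neighbours of TNFAIP3 on chromosome 6 had log2 ratios below 0 in 15 of 20 cases, with a median of -0.10, and none of them was higher or lower by 1.5-fold. Over all compared genes, 51.3% had a log2 ratio below 0. With the neighbours' median taken off, the log2 ratio was 0.62 for NFKBIB and 0.81 for TNFAIP3. Of the 20 neighbours of NFKBIA on chromosome 14, 18 had a log2 ratio below 0, with a median of -0.15, and its log2 ratio with that median taken off was 0.17 in place of 0.01. For the other 7 members the median of the neighbours lay between -0.09 and 0.06.

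NFKBIB was the only member that overlaps another gene of the table in GENCODE release 29. That gene is SIRT2, a deacetylase gene on the opposite strand, with 35.3 FPKM in wild type against 38.6 FPKM in knockout, a log2 ratio of 0.13. The library kit is directional, but the sources used here do not say whether the counting used strand. The next gene on the other side, CCER2, had 0.616 FPKM in wild type against 1.52 FPKM in knockout, a log2 ratio of 1.30. The part of overlapping reads in the NFKBIB difference was not tested. REL, RELA and TNFAIP3 overlap non-coding genes that are not in the table.

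**Figure D4:**
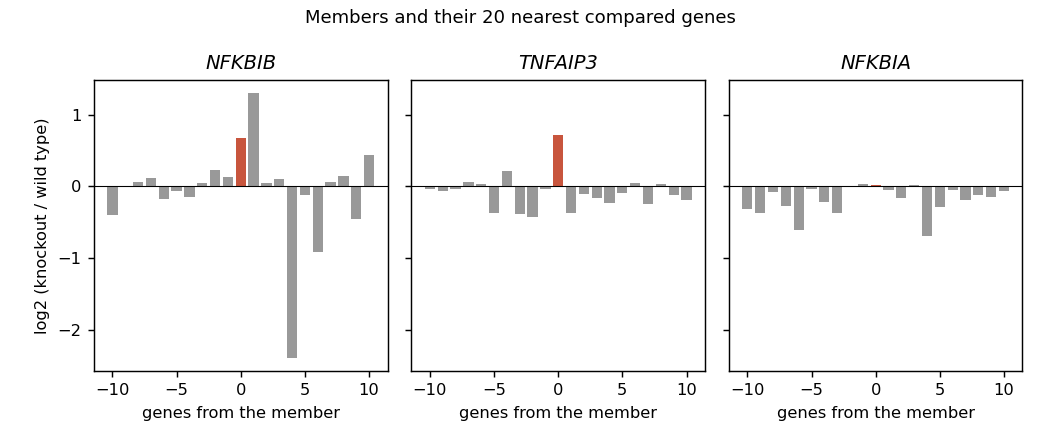
Log2 ratio of knockout over wild type for NFKBIB, TNFAIP3 and NFKBIA (red bars) and the 10 compared genes on each side in gene order (grey bars). TNFAIP3 (0.71) stands among neighbours with a median of -0.10, NFKBIA (0.01) among neighbours with a median of -0.15, and NFKBIB (0.67) beside CCER2 (1.30).

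The title of the series concerns G-rich elements in coding sequences, so the longest coding sequence of each member in GENCODE release 29 was searched for TGGAG on the coding strand. The members were spread over almost the whole range of the 13180 compared genes that had a coding sequence there, whose median was 2.84 motifs per kb. NFKBIB, with 7 in 1068 coding bases, had 6.55 per kb, at percentile 94.3. TNFAIP3, the other member past 1.5-fold, had 2 in 2370 bases or 0.844 per kb, at percentile 9.68. These 2 had the highest ratios of the members, and a relation of motif density to ratio was not tested. NFKB1 and NFKB2 had 14 each (4.82 and 5.19 per kb), IKBKB had 11 (4.85 per kb), and REL, with 1 in 1857 bases, had the lowest density at 0.539 per kb. RELB, NFKBIA, NFKBIE and RELA lay between, at 3.45, 3.15, 2.00 and 1.81 per kb.

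A 60-base stretch of coding sequence with the highest number of TGGAG motifs in that gene is shown for the precursor gene NFKB1 (coding bases 1134 to 1193, chromosome 4), for NFKBIB (549 to 608, chromosome 19) and for TNFAIP3 (403 to 462, chromosome 6), with the motif in capitals. They hold 3, 2 and 1 motifs.
NFKB1: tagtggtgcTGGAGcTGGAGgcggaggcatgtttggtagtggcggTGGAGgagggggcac
NFKBIB: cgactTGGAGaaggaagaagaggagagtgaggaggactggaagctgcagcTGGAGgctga
TNFAIP3: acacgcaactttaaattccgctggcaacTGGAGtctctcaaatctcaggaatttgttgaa
The log2 ratios of NFKB1, NFKBIB and TNFAIP3 were -0.14, 0.67 and 0.71, and a relation of the motifs in these stretches to the ratio was not tested. Binding of CNBP and translation were not analysed here.

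The rest of the pathway was taken from lists of 137 other genes, and its shares were near those of all compared genes. Of the 100 that could be compared, 1 was higher and 2 were lower by 1.5-fold or more, shares of 1.00% and 2.00% beside 1.48% and 2.78% of all genes. Their median log2 ratio was -0.01, and 81 of 100 lay within 1.2-fold, beside 78.2% of all compared genes. The 3 genes past that fold were a target (GADD45B), a receptor (TNFRSF10A) and a ligand (IL18).

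Upstream, the receptors were mostly low in both columns, and 11 of 18 could be compared, with a median of -0.06. The most abundant of them, TNFRSF10B (named after its value was seen), had 76.0 FPKM in wild type against 80.9 FPKM in knockout, a log2 ratio of 0.09. TNFRSF10A, a death receptor for TRAIL, went from 1.06 FPKM in wild type to 0.479 in knockout (2.20-fold lower). With 1 FPKM added to both values its log2 ratio was -0.47, below 1.5-fold. Of 11 ligands, TNF, LTA, LTB and TNFSF12 were listed at 0 in both columns, which can be a failed estimate. Among the rest, only IL18, an interleukin-1 family cytokine, reached 1 FPKM in either column. It had 1.55 FPKM in wild type and 0.731 FPKM in knockout (2.12-fold lower), and with 1 FPKM added its log2 ratio was -0.56.

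None of the adaptors, ubiquitin ligases and upstream kinases was past 1.5-fold, a count near the background of 1.48% higher and 2.78% lower. Among the adaptors and ubiquitin ligases, 22 of 23 could be compared, with a median of -0.07. Of these, 7 were above 0 and 15 below, beside 51.3% of all compared genes below 0. The most abundant were IRAK1, a kinase of the interleukin-1 receptor complex (257 and 273 FPKM), and UBE2N, a ubiquitin-conjugating enzyme (102 and 97.5 FPKM). TRAF2, an adaptor of tumour necrosis factor receptors, had the highest log2 ratio of that list at 0.44, and MYD88, the adaptor of Toll-like and interleukin-1 receptors, the lowest at -0.48, both chosen after their values were seen. The upstream kinases and their adaptors had a median of -0.01 over 12 genes, with CHUK at -0.03 and AZI2, an adaptor of TBK1, at 0.03. They ran from -0.53, the value of MAP3K8 (4.31 FPKM in wild type against 2.98 FPKM in knockout), to 0.20, that of TBK1, both chosen after their values were seen.

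Further lists hold genes that act on IkB or on ubiquitin chains, and nuclear partners and transport factors. None of their genes was past 1.5-fold, a count near the background of 1.48% higher and 2.78% lower. The 11 compared A20 partners and deubiquitinases had a median of 0.05 and ran from -0.07 to 0.32, with ITCH, a ubiquitin ligase that works with A20, and OTULIN, which cuts linear chains, each at 0.15. The 8 genes of the SCF-betaTrCP ligase had a median of 0.00 and all lay within 1.2-fold, with SKP1 at -0.12 and UBE2D3 at 0.07. The 16 nuclear partners and transport factors had a median of -0.03 and ran from -0.34 (NKIRAS2) to 0.32 (CREBBP), both named after their values were seen, with XPO1, the exportin that carries IkB-alpha complexes out of the nucleus, at 0.05 and the importin KPNA2 at -0.01. The 3 atypical IkB genes were all above 0, BCL3 (chosen after its value was seen) at 0.35, NFKBID at 0.20 and NFKBIZ at 0.10.

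Among 34 genes known as NF-kB targets, 18 could be compared, 9 above 0 and 9 below, with a median of -0.00. Over all compared genes, 51.3% had a log2 ratio below 0. GADD45B, a stress-inducible gene, was the one past 1.5-fold, from 15.6 to 40.4 FPKM (2.59-fold higher). That is 5.56% of the 18 targets, beside 1.48% of all compared genes higher by that fold. No target was lower by that fold, beside 2.78% of all compared genes. Further targets were chosen after their values were seen. CXCL8, a neutrophil chemokine, had 1.53 and 2.02 FPKM (log2 ratio 0.40), and ICAM1, an adhesion receptor, had 2.34 and 2.83 FPKM (0.27). The anti-apoptotic gene BIRC3 had 1.59 and 1.29 FPKM (-0.30), and SOD2, a mitochondrial superoxide dismutase, had 57.6 and 56.4 FPKM (-0.03). TNFAIP3 and NFKBIA, which are targets as well as members, stood at 0.71 and 0.01.

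**Figure D5:**
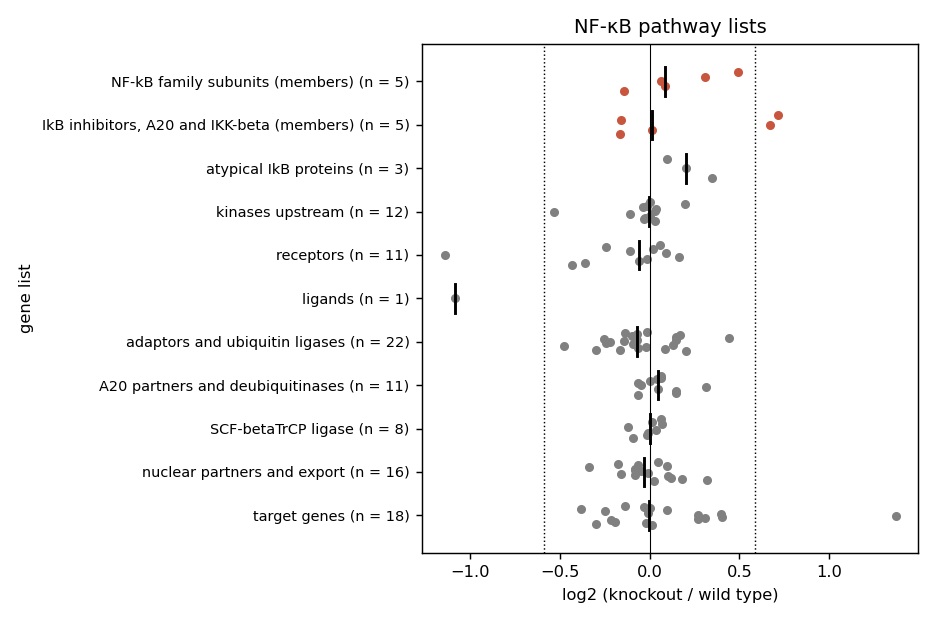
Log2 ratio of knockout over wild type for every compared gene of the NF-kB lists (points, red for the members) with the median of each list (black bar) and a fold of 1.5 (dotted lines). The members past the fold are NFKBIB and TNFAIP3, and the other genes past it are GADD45B, TNFRSF10A and IL18.

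In all, 10 of the 137 other pathway genes were listed at 0 in both columns. Of these, 5 (TNF, LTA, LTB, IER3 and TAP1) carry an Ensembl ID in the table that is not on the primary assembly of GENCODE release 29, and the other 5 (IKBKG, IKBKE, OTUD7B, CCL5 and TNFSF12) carry one that is. IKBKG encodes NEMO, the regulatory subunit of the IKK complex that IKK-beta works in. No value of these genes was used, since a listed 0 can be a failed estimate. All 10 members carry an ID of the primary assembly.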

How the data were processed

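Libraries of total RNA were directional, as the labels' protocols state. The submitters' processing notes name TopHat, Cufflinks and Cuffdiff and build hg19. The FPKM values were computed and deposited by the authors, 1 per gene and group; the unit was inferred from those tools, and the way the 3 libraries were merged into it is not given in the sources. The columns sum to 612366 and 612941.

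Ratios were computed without a pseudocount for genes that reached 1 FPKM in either column and were not at 0 in the other. A linear model with p-values was planned in case values per library were found; 1 value per group allows none, so a fold of 1.5 was used. In all, 26 symbols turned into date numbers were restored by Ensembl ID. Gene order, overlaps and coding sequences came from GENCODE release 29, on another build, so no gene coordinates are given.

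The members, lists and threshold were chosen with earlier results of these data known. Named by rule were all members, CNBP and, in each other list, up to 4 genes past the fold or else the 2 most abundant. Some other genes of these lists were named after their values were seen and are marked so. Calculations were tested on simulated data. Alternatives were other FPKM minimums, pseudocounts, folds, centring and the neighbours' median. Python 3.11.15, numpy 2.4.6, pandas 2.3.3 and matplotlib 3.10.9 were used.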

Additional observations from a re-analysis of the deposited data

How the results depend on the processing

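No paired analysis was possible because the table holds 1 value per group, and for the same reason no replicate could be left out. The signs of all 10 members' log2 ratios held under the settings in which they could be computed. NFKBIB ranged from 0.62 to 0.67 and TNFAIP3 from 0.56 to 0.81. The count of members higher by the fold was 2. It was 1 with a minimum of 5 FPKM, which leaves TNFAIP3 out, 1 with a pseudocount of 1, 0 at a fold of 2 and 4 at a fold of 1.2. The share over all genes was not computed for that minimum or that pseudocount, so these counts have no background beside them. 

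Counts in the other lists moved as follows. Without a minimum FPKM, 2 receptors, 3 ligands and 3 targets were higher, and 3 ligands and 4 targets lower. Those counts take in genes below 1 FPKM, and the share over all genes was not computed for that setting. With a pseudocount of 1, 0 receptors and 0 ligands were lower, and with a minimum of 5 FPKM 0 receptors. For these settings too the share over all genes was not computed. At a fold of 1.2, 8.62% of all compared genes were higher and 13.2% lower. Higher were 1 of 3 atypical IkB genes, 1 of 22 adaptors and 1 of 11 A20 partners. So were 1 of 16 nuclear partners and 6 of 18 targets. Lower were 1 of 12 kinases, 3 of 11 receptors, 2 of 22 adaptors, 1 of 16 nuclear partners and 2 of 18 targets. With a pseudocount of 1, REL made up 9.92% of the subunit sum in wild type and 9.26% in knockout, and RELB 3.74% and 4.21%. Depth is unknown, so that the precision of low values such as those of TNFAIP3 and RELB cannot be given.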
